A study of Mus musculus with 6 samples.

Results

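Ciliary genes were followed through the epithelium of the mouse gonadal primordium with and without the homeobox gene Emx2. Members were chosen by annotation and were the array probe sets assigned to a single gene symbol made of the stem Cfap, Dnah, Dnai, Rsph, Ift or Bbs and a number, with at most 1 trailing letter. There were 95 such probe sets among the 45101 on the array, and they named 61 of the 18194 genes that the annotation names singly. The motile axoneme group (Cfap, Dnah and Rsph) held 61 probe sets of 39 genes, and the transport group (Ift and Bbs) held 34 probe sets of 22 genes. No symbol carried the stem Dnai, because the annotation lists those dynein intermediate chain genes as Dnaic1 and Dnaic2. The rule reads symbols only, but these families were picked from results of the same KO and wild-type arrays, Cfap161 being known as a large fall, so what follows between the genotypes is a description and supports no statement about the families as such.

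Emx2 knockout (KO, -/-) fetuses were compared with wild-type (WT, +/+) fetuses at E10.5 (mid-gestation), and strain, sex and litter were not stated in the labels. The sample titles name the tissue urogenital epithelium. Epithelial cells of the gonadal primordium were cut from 30 µm frozen sections by laser microdissection, after GATA4 staining of some sections had shown where the primordium lay. Each pool combined 3 fetuses, each genotype had 3 pools, and 15 ng of RNA per pool was amplified in 2 rounds before 1 array was hybridised. In such bulk material, fewer cells of a type and less RNA per cell cannot be told apart.

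A cilium is built on a microtubule axoneme that grows from a basal body. Motile cilia carry dynein arms (Dnah heavy chains), radial spokes (Rsph) and further axonemal proteins (many of the Cfap genes), and their genes are switched on by FOXJ1 together with RFX factors. Primary cilia, which most cells of a fetal epithelium can bear and through which Hedgehog signals pass, lack that motility apparatus. Both kinds are assembled by intraflagellar transport (IFT), in which the IFT-B complex moves outward with kinesin and IFT-A returns with dynein, while the BBSome, an octamer of Bardet-Biedl syndrome (BBS) proteins, moves membrane proteins.

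Intensities below are the deposited values scaled to a common trimmed mean, with values under the floor of 7.99 set to it for means. A probe set entered the test if its mean log2 intensity over the 6 arrays reached 4.72, which is an intensity of 26.4, called the dim limit here. KO and WT were compared with limma across 27022 probe sets, log2 fold changes are KO minus WT, and "called" means an adjusted p under 0.05 over all of them. Called probe sets made up 4.68% of those tested, 2.75% being higher and 1.93% lower in KO. Over everything tested the median difference was 0.01.

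The pools differed in other ways that stand beside every value below. The Emx2 probe set read 1678, 1480 and 1746 in KO pools against 1302, 2120 and 1727 in WT pools, so it does not separate the genotypes, and the labels do not say where it lies relative to the deleted part. The antisense transcript of the same locus, Emx2os, read 44.9, 28.6 and 42.9 in KO pools against 167, 229.9 and 174 in WT pools (limma adjusted p = 0.00015), without overlap. The brightest probe set of Xist, the RNA of the inactive X chromosome, read between 9321 and 9888 in KO pools and between 13.3 and 69.9 in WT pools, and that of the Y-linked gene Uty between 47.9 and 57.8 in KO and between 208 and 261 in WT pools. Of 10 mesenchymal markers 6 were called higher in KO, with summed intensities of 18945 to 19682 in KO and 13150 to 14738 in WT pools. Of 8 endothelial markers on the array 3 were called higher, with sums of 788 to 1050 in KO and 454 to 642 in WT pools. The 12 markers listed here for coelomic epithelium summed to 18597 to 21261 in KO and 18786 to 21027 in WT pools. Of these, Msln alone had both group means under the dim limit, and 4 were called higher and 2 lower in KO. Among the other lists, 2 of 8 tested muscle markers were called higher and 3 lower, 1 of 5 neural crest markers higher and 1 lower, and 0 of 7 germ cell markers higher and 2 lower. Xist and Uty split the pools exactly as the genotype does, so effects of fetal sex and of genotype cannot be told apart in any value here. The part of the other differences in the ciliary values was not tested. Of the 61 member genes, 1 (Cfap47) is X-linked.

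Most genes of the motile axoneme gave little signal in either genotype. Of the 61 motile probe sets, 43 stayed under the filter and 18 were tested, and 25 of the 39 motile genes had no tested probe set. In 40 motile probe sets both group means lay under the dim limit, and in 8 all 6 arrays were at the floor, namely both further Cfap69 probe sets and single ones of Cfap54, Cfap61, Cfap70, Cfap298, Rsph3a and Rsph6a. The outer and inner arm dynein heavy chains Dnah2, Dnah5, Dnah6, Dnah8, Dnah9, Dnah11, Dnah12 and Dnah17 were all untested, as were the radial spoke genes Rsph4a and Rsph6a. Untested motile probe sets had single intensities between 0.1 and 47.1. Amplification in 2 rounds favours transcript ends, so a low signal here does not show that a transcript was missing.

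The transport genes, in contrast, were nearly all measured. Of their 34 probe sets 31 were tested, all 22 Ift and Bbs genes had at least 1 tested probe set, and both group means exceeded the dim limit in 31. Their untested probe sets were second or further ones of Bbs7, Ift57 and Ift81.

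Cfap161, which encodes a protein of the axonemal microtubule lumen, was the only member called, and it was lower in KO. Its single probe set read 14.6, 14.2 and 21.2 in KO pools against 173, 246 and 152 in WT pools. The groups lie far apart, and every KO value is under the dim limit while every WT value is well over it. The means were 16.7 ± 3.94 in KO and 190.4 ± 49.7 in WT (SD over 3 pools), a log2 difference of -3.51 with an SE of 0.28 (limma, adjusted p = 2.23e-05). The size is less certain than the direction, since it was -2.64 with a pseudocount of 16 in place of the floor. With the lowest 60% of probe sets left out, Cfap161 itself was no longer tested and 0 motile probe sets were called (0 also for Ift and Bbs).

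The promoter of Cfap161 is shown because the gene stood apart from the other motile members, and those of Cfap298, Bbs7 and Ift57 because they hold further copies of the hexamer that RFX factors bind in the X-box of ciliary promoters. Each window runs from 250 bases before to 50 bases after the RefSeq start (GRCm38.p6), 5′ to 3′ on the gene's strand, and capitals mark GTTGCC or its reverse complement GGCAAC, with a 14-base form, GTTGCC followed after any 2 bases by GGNAAC, where it occurs. The windows were chosen after the matches had been seen.
Cfap161, chr7:83794790-83795089, minus strand: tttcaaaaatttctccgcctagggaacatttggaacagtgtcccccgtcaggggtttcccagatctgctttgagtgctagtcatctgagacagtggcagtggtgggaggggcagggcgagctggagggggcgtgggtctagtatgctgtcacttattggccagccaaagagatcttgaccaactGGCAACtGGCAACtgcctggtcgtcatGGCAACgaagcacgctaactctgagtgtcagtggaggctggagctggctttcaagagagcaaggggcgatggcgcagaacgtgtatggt
Cfap298, chr16:90934800-90935099, minus strand: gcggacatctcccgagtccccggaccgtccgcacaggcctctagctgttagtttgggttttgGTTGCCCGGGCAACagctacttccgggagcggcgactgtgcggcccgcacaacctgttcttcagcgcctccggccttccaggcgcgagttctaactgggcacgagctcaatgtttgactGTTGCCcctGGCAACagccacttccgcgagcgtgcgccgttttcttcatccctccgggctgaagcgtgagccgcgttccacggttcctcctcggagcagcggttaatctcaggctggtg
Bbs7, chr3:36613340-36613639, minus strand: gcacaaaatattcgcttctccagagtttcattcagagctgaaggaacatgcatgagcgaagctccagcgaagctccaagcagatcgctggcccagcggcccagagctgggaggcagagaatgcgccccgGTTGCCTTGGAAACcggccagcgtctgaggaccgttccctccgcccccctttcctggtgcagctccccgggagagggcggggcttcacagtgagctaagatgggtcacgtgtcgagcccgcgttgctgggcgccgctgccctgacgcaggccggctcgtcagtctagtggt
Ift57, chr16:49699044-49699343, plus strand: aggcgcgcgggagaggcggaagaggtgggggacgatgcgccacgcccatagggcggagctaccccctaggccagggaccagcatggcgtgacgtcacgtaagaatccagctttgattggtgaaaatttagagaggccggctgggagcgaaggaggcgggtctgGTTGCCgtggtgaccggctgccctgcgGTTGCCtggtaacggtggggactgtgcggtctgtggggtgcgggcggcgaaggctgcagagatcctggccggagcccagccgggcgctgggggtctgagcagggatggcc

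Cfap161 has the hexamer 3 times, beginning 66, 59 and 39 bases before the start, and all 3 copies read GGCAAC. Cfap298, a factor for dynein arm assembly, has it 4 times as 2 inverted pairs, 1 of which (GTTGCCCGGGCAAC) is the 14-base form, and Bbs7 has 1 such form (GTTGCCTTGGAAAC). Searched on both strands, the hexamer occurred in 13 (24.5%) of the 53 RefSeq windows of the 50 member genes that had one, and in 12.5% of all 32851 windows. It was found in 8 of 19 Ift and Bbs windows (42.1%) and in 5 of 34 motile windows (14.7%). Those 5 were all among the 14 windows of motile genes with a tested probe set (35.7%). No share was taken over the windows of all genes with a tested probe set, so 12.5% is not a matched background for these 14. The 14-base form, which contains the hexamer, was found in 2 member windows and in 0.298% of all windows. The forkhead heptamer GTAAACA was found in 3 motile windows (8.82%), in 0 of the Ift and Bbs windows and in 3.65% of all windows, and Cfap161 had none. These are matches of letters, with no measure of binding.

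Foxj1 was too dim to test, and none of the tested Rfx genes was called. Foxj1, the forkhead factor of motile cilia, averaged 9.83 ± 2.89 in KO and 9.14 ± 1.26 in WT pools, with every array under the dim limit. Rfx3, an RFX factor of motile and primary cilia, read 230, 255 and 289 in KO pools against 334, 206 and 308 in WT pools, and the groups overlap. Rfx5, best known from MHC class II genes, averaged 516 ± 59.8 in KO and 418 ± 40.1 in WT pools without being called (adjusted p = 0.288). Of 16 genes for ciliary transcription and centriole amplification on the array, 12 were tested and 0 were called by limma. Foxn4, Deup1 and Rfx5 had unadjusted limma p-values of 0.0147, 0.0198 and 0.0496. Foxn4 read 35.7, 89.2 and 33.4 in KO pools against 14.9, 7.08 and 38.0 in WT pools (1.52, SE 0.54, limma adjusted p = 0.151). Its groups overlap, and its WT mean of 20.3 is under the dim limit. Deup1, needed for centriole amplification, had 71.7, 60.8 and 35.1 in KO pools and 20.1, 39.6 and 26.8 in WT pools, and its groups overlap.

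The nephric duct and tubules lie next to the gonadal primordium. Of 6 of their markers 3 were tested, and 2 of these, Lhx1 and Pax8, were called lower in KO. Their summed intensity was 94 to 173 in KO and 288 to 335 in WT pools over 6 genes. Lhx1, a LIM homeobox gene of the nephric lineage, read 20.6, 22.4 and 19.3 in KO pools against 75.8, 45.5 and 59.1 in WT pools (log2 fold change -1.51, SE 0.30, limma adjusted p = 0.0116). Pax8, a paired box gene of the same lineage, read 50.6, 37.7 and 24.2 in KO pools against 90.8, 101 and 84.5 in WT pools (-1.36, SE 0.29, limma adjusted p = 0.0166). Both were called lower, and neither pair of groups overlaps. The third tested marker, Gata3, was not called (adjusted p = 0.269). Cdh16, a cadherin of renal tubules that stayed under the filter, averaged 11.3 ± 5.76 in KO and 50.7 ± 6.74 in WT pools without overlap, whereas Ret (21.4 in KO and 20.2 in WT pools on average) and Wnt9b (16.3 in KO and 29.6 in WT pools) were untested and overlapped. Lhx1 was not called without WT replicate 1 (limma adjusted p = 0.0695) or with no filter on dim probe sets (0.111), nor Pax8 without WT replicate 1 or 2 or KO replicate 3, with no filter (0.194) or without limma's intensity trend (0.0573). Other marker lists held larger falls, named here with their values seen. Of 8 tested muscle markers 3 were called lower, among them Mybpc1 (-3.36) and Myh6 (-2.47), and 2 were called higher. Of 5 tested neural crest markers Dct (-3.76) was called lower and Ednrb (1.53) higher. Whether fewer cells of any of these types contributed to the Cfap161 value was not tested.

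Markers of multiciliated cells were mostly too dim to test. Of 8 on the array, Foxj1, Ccno, Trp73 and Pifo had both means under the dim limit, 3 were tested (Tekt1, Deup1 and Myb) and 0 were called by limma, 2 of them with an unadjusted p under 0.05. Their summed intensity was 302 to 392 in KO and 333 to 460 in WT pools, and these ranges overlap. A large part of this sum came from Myb, at 112, 203 and 268 in KO pools and 182, 163 and 290 in WT pools. Tekt1, a tektin of motile axonemes, averaged 37.6 ± 9.53 in KO and 64.7 ± 9.73 in WT pools without overlap (-0.80, limma adjusted p = 0.139), while Deup1 differed the other way.

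**Figure D1:**
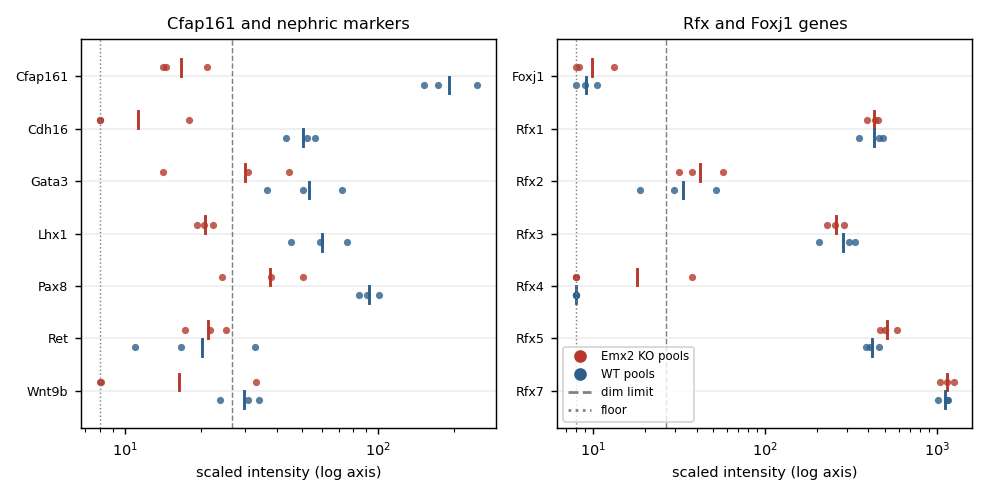
Scaled intensity (log axis, values under the floor drawn at it) of Cfap161 and the nephric markers on the left and of Foxj1 and the Rfx genes on the right, with 1 point per pool and a bar at each group mean, KO above WT. Cfap161 lies between 14.2 and 21.2 in KO pools and between 152 and 246 in WT pools. Of the nephric markers, Lhx1, Pax8 and Cdh16 are lower in every KO pool than in every WT pool, whereas Gata3, Ret and Wnt9b overlap. Among the Rfx genes only Rfx5 does not overlap, being higher in KO pools without being called.

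The genes beside Cfap161 on chromosome 7 did not share its fall in size. In RefSeq order Il16 and Stard5 lie on one side and Tlnrd1, Mesd and Cemip on the other. Stard5, a lipid transfer protein gene, had 1 probe set called lower, at 276, 271 and 226 in KO pools against 379, 415 and 456 in WT pools (log2 fold change -0.69, SE 0.15, limma adjusted p = 0.0166). A further pair of Stard5 probe sets gave -0.48 and -0.51 without being called, and both were also lower in every KO pool than in every WT pool. That call was lost without KO replicate 3, with no filter, without the intensity trend and on the values as deposited (limma adjusted p up to 0.323). The tested probe set of Il16 gave -0.08, both of Tlnrd1 gave -0.28 and 0.05, and the tested one of Cemip gave -0.71 (limma adjusted p = 0.278). The groups of these tested probe sets of Il16, Tlnrd1 and Cemip overlap, and Mesd had no probe set of its own name.

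Beside Cfap161, 17 motile probe sets were tested and 0 of them were called by limma (4.68% of all tested probe sets were). An unadjusted p under 0.05 was found for 5 of the 17 (17.3% of all tested probe sets had one). Cfap69, a protein of the central apparatus, read 15.8, 25.0 and 19.8 in KO pools against 53.9, 44.9 and 30.7 in WT pools (log2 fold change -1.08, SE 0.34, limma adjusted p = 0.106). The groups do not overlap, but all KO values are under the dim limit.

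Both tested radial spoke head genes were lower in KO on average. Rsph1 read 76.4, 64.6 and 74.3 in KO pools against 148, 166 and 79.1 in WT pools (-0.80, SE 0.27, limma adjusted p = 0.128). The groups are apart only by the gap between the highest KO pool and WT replicate 3, which lies well below the other WT pools. Without that replicate the log2 fold change was -1.13 and Rsph1 was called (limma adjusted p = 0.00932). Rsph9 averaged 60.8 ± 15.7 in KO and 79.8 ± 12.5 in WT pools (-0.42, SE 0.26), and its groups overlap.

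Cfap20, a protein of the axonemal inner junction that is also found at basal bodies, was read by a pair of probe sets that point the same way. One read 1191, 1181 and 1172 in KO pools against 1420, 1701 and 1461 in WT pools (-0.37, SE 0.10, limma adjusted p = 0.0689). The other averaged 928 ± 48.5 in KO and 1111 ± 122 in WT pools (-0.26, SE 0.11, limma adjusted p = 0.274). Neither overlaps between the genotypes and neither was called, although the first pair of values would be at a threshold of 0.1.

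Cfap410, a protein at the base of cilia, was less uniform. Its dimmer probe set read 30.2, 41.5 and 27.0 in KO pools against 47.2, 52.5 and 68.0 in WT pools (-0.77, SE 0.29, limma adjusted p = 0.179), with no overlap. Its brighter one gave -0.28 (SE 0.19) and its groups overlap. Of 4 Cfap298 probe sets 2 were tested, and these were lower in every KO pool, with log2 fold changes of -0.23 and -0.22 that were not called (limma adjusted p = 0.53 and 0.55).

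Of the 18 tested motile probe sets 5 had a fold change above 0, and none of these was called. Dnah1, an inner arm dynein heavy chain, read 156, 136 and 146 in KO pools against 130, 112 and 93.0 in WT pools (0.40, SE 0.19, limma adjusted p = 0.315). It is the only motile probe set tested whose KO values all exceed its WT values. Dnah7a and Cfap57 gave 0.40 (SE 0.31) and 0.45 (SE 0.38), each with overlapping groups and values close to the dim limit.

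Other motile members showed almost no difference. Cfap36, which binds the ciliary GTPase ARL3, averaged 673 ± 44.0 in KO and 674 ± 58.7 in WT pools, with a 95% confidence interval of -0.26 to 0.26 for the log2 fold change. Cfap300, a dynein arm assembly factor, averaged 230 ± 22.0 in KO and 237 ± 48.7 in WT pools (-0.41 to 0.36). Cfap97 had a bright probe set at 1208 ± 99.7 in KO and 1078 ± 113 in WT pools (-0.08 to 0.42) and a dimmer one, named after its values were seen, that gave -0.49 (limma adjusted p = 0.363) and was called only without WT replicate 3 (-0.79, adjusted p = 0.0479).

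**Figure D2:**
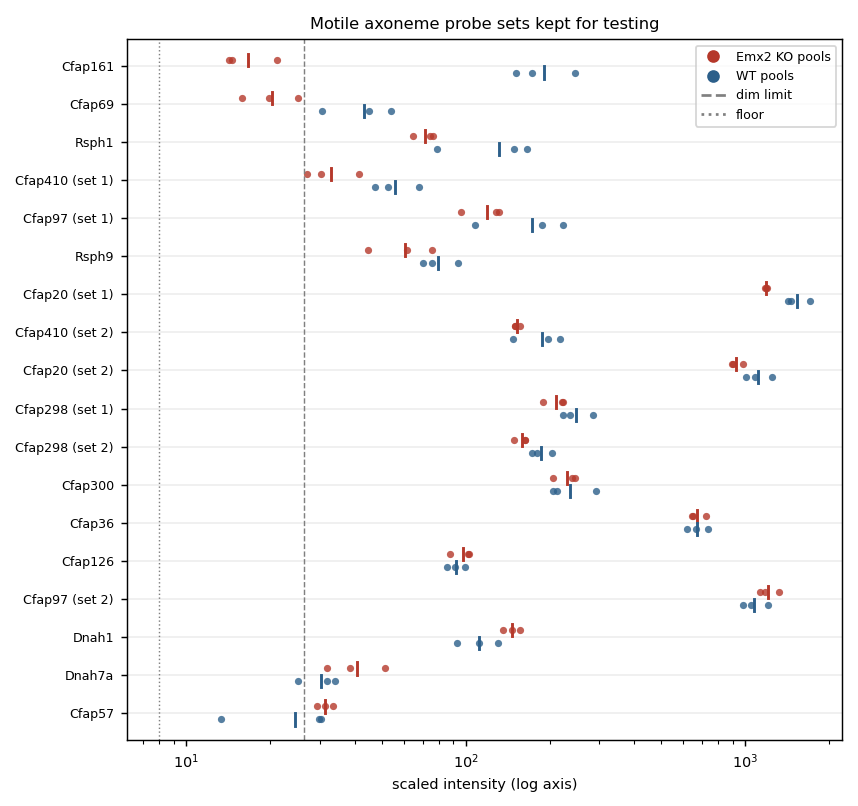
Scaled intensity (log axis) of the 18 tested motile axoneme probe sets, ordered by log2 fold change, with 1 point per pool, a bar at each group mean, KO above WT, and lines at the dim limit and the floor. Cfap161 has the widest gap, the 3 KO pools of Cfap69 lie under the dim limit of 26.4, and Dnah1 at 136 to 156 in KO pools lies above its WT pools.

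The motile group is one of names, and its tested part includes Cfap20, Cfap36 and Cfap410, whose roles given above are not confined to motile cilia. Its median is therefore not one of motility genes alone. Across the 18 tested motile probe sets, which passed a filter on low values and are not all 61, the median log2 fold change was -0.24, and -0.23 without Cfap161, beside 0.01 over all tested probe sets. It was 0.00 when all 61 were kept without a filter, where most sat at or near the floor, -0.16 without WT replicate 3, and -0.15 on the values as deposited, where that of all tested probe sets was 0.10. The groups did not overlap in 9 of the 18, 8 of them lower and 1 higher in KO. Without Cfap161 it was 8 of 17, with 7 lower. Among the lower ones Cfap161 and Cfap69 had KO means under the dim limit, so they passed the filter only through their WT values. The tested Cfap57 probe set, whose groups overlap, passed only through its KO values. Of all tested probe sets 22% did not overlap, 12% being higher and 10% lower. Several motile probe sets share a gene, so these counts are not independent.

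No transport gene was called in either direction by limma. Of 31 tested Ift and Bbs probe sets 0 were called, beside 4.68% of all tested probe sets, and with so few probe sets 0 is close to that share. An unadjusted p under 0.05 was found for 7 (17.3% of all tested probe sets had one). The median log2 fold change was -0.13 (-0.04 on the values as deposited), 22 probe sets lay below 0 and 9 above, and 49.1% of all tested probe sets lay below 0. The groups did not overlap in 10 of the 31, 8 lower and 2 higher in KO, beside 22% of all tested probe sets. For 30 of the 31 the 95% confidence interval of the log2 fold change lay within -1 and 1, that of Bbs5 reaching -1.09.

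Among subunits of the BBSome, Bbs5 read 57.5, 52.4 and 58.3 in KO pools against 80.2, 61.5 and 108 in WT pools (-0.54, SE 0.25, limma adjusted p = 0.304). Bbs2 read 93.6, 88.8 and 67.7 in KO pools against 127, 112 and 112 in WT pools (-0.50, SE 0.21, limma adjusted p = 0.232). Bbs1 read 160, 149 and 140 in KO pools against 185, 193 and 212 in WT pools (-0.39, SE 0.16, limma adjusted p = 0.234). In all 3 genes every KO pool was lower than every WT pool, by less than 2-fold on average.

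The 4 tested Bbs4 probe sets disagreed. One read 227, 230 and 205 in KO pools against 270, 370 and 257 in WT pools (-0.42, SE 0.17), without overlap. Another, dimmer one read 61.7, 63.3 and 56.8 in KO pools against 49.3, 53.8 and 51.3 in WT pools (0.24, SE 0.23), without overlap in the opposite direction. The others gave -0.12 and 0.06, and none was called, the lowest adjusted p being 0.218. Bbs7 and Bbs9, further BBSome subunits, gave 0.10 (SE 0.18) and -0.14 (SE 0.35). Bbs10 and Bbs12, chaperonin-like factors that help assemble the BBSome, gave between -0.11 and 0.11 over 3 probe sets, and their groups overlap.

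In the IFT-A complex, Ift122 was lower in KO at both probe sets. The brighter one read 1174, 1340 and 1236 in KO pools against 1744, 1590 and 1405 in WT pools (-0.33, SE 0.11, limma adjusted p = 0.12), and the dimmer one 65.8, 71.8 and 45.5 in KO pools against 84.4, 90.0 and 72.0 in WT pools (-0.45, SE 0.25, limma adjusted p = 0.389). Neither overlaps, and the brighter one was called only without WT replicate 3 (-0.42, limma adjusted p = 0.0446). Ift140 averaged 1050 ± 97.6 in KO and 1132 ± 55.5 in WT pools (95% confidence interval -0.35 to 0.13), and Ift43 886 ± 82.6 in KO and 860 ± 118 in WT pools (-0.23 to 0.33).

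In the IFT-B complex, Ift88, whose loss abolishes most cilia in mice, read 335, 277 and 256 in KO pools against 390, 315 and 466 in WT pools (-0.42, SE 0.17, limma adjusted p = 0.221). Its groups overlap through KO replicate 1 and WT replicate 2. Ift81, a tubulin-binding subunit, averaged 989 ± 56.7 in KO and 1158 ± 37.2 in WT pools at its bright probe set (-0.23, SE 0.10, limma adjusted p = 0.279), without overlap. Its dimmer tested probe set also gave -0.23 (SE 0.17, limma adjusted p = 0.547), with overlap. Its partner Ift74 averaged 711 ± 94.3 in KO and 787 ± 51.9 in WT pools (-0.15, SE 0.13), with overlap.

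Ift80 was the transport gene with the greatest difference toward higher values in KO. One probe set read 148, 167 and 128 in KO pools against 114, 90.2 and 123 in WT pools (0.44, SE 0.20, limma adjusted p = 0.282), without overlap. The other averaged 239 ± 19.8 in KO and 228 ± 9.21 in WT pools (0.07, SE 0.15), with overlap, so they do not give the same size.

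Further IFT-B genes lay close together in both genotypes. Ift57 averaged 373 ± 26.9 in KO and 362 ± 22.5 in WT pools (95% confidence interval -0.25 to 0.34), and Ift46 1107 ± 246 in KO and 1110 ± 24.6 in WT pools (-0.33 to 0.28), where KO replicate 1 at 1391 stands above the other KO pools. Ift20, Ift22, Ift27, Ift52 and Ift172 gave log2 fold changes between -0.27 and -0.06 over their 7 tested probe sets, and of these only 1 of 3 Ift27 probe sets did not overlap.

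**Figure D3:**
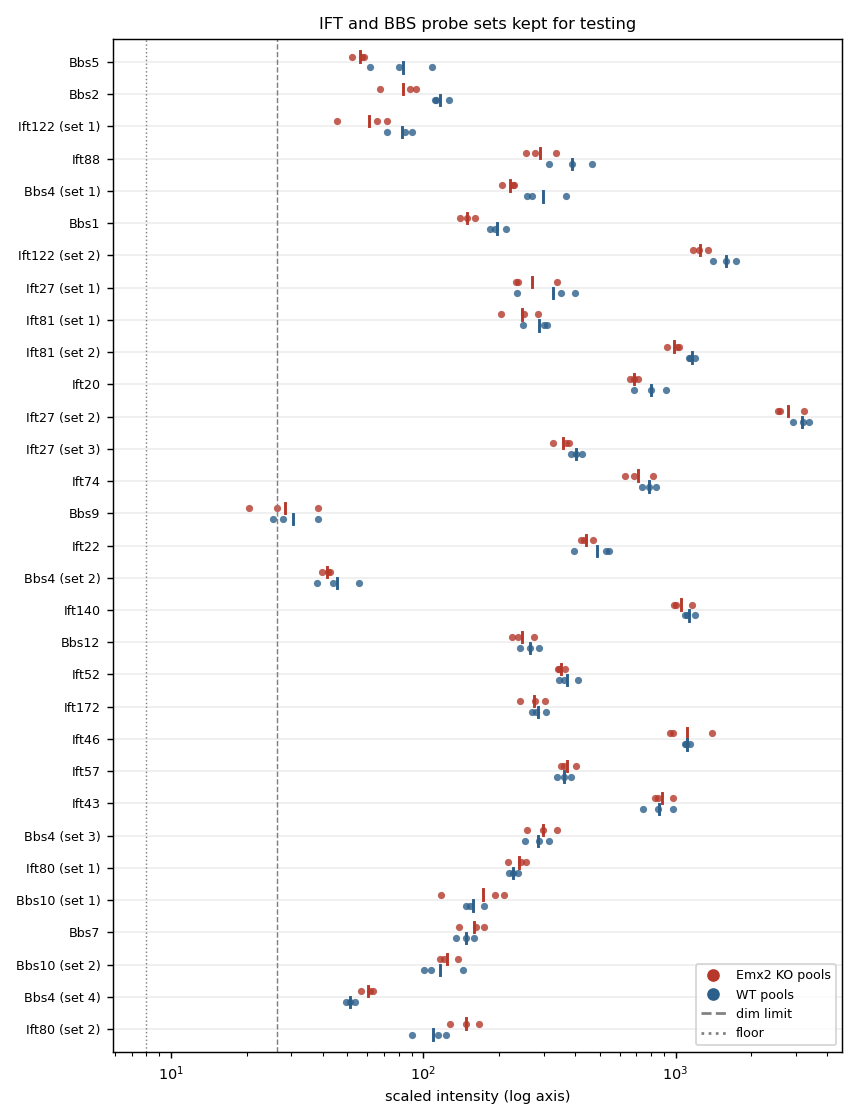
Scaled intensity (log axis) of the 31 tested Ift and Bbs probe sets, ordered by log2 fold change, with 1 point per pool and a bar at each group mean, KO above WT. Nearly all pools lie above the dim limit of 26.4, and the 2 genotypes lie close together or overlap at most probe sets.

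**Figure D4:**
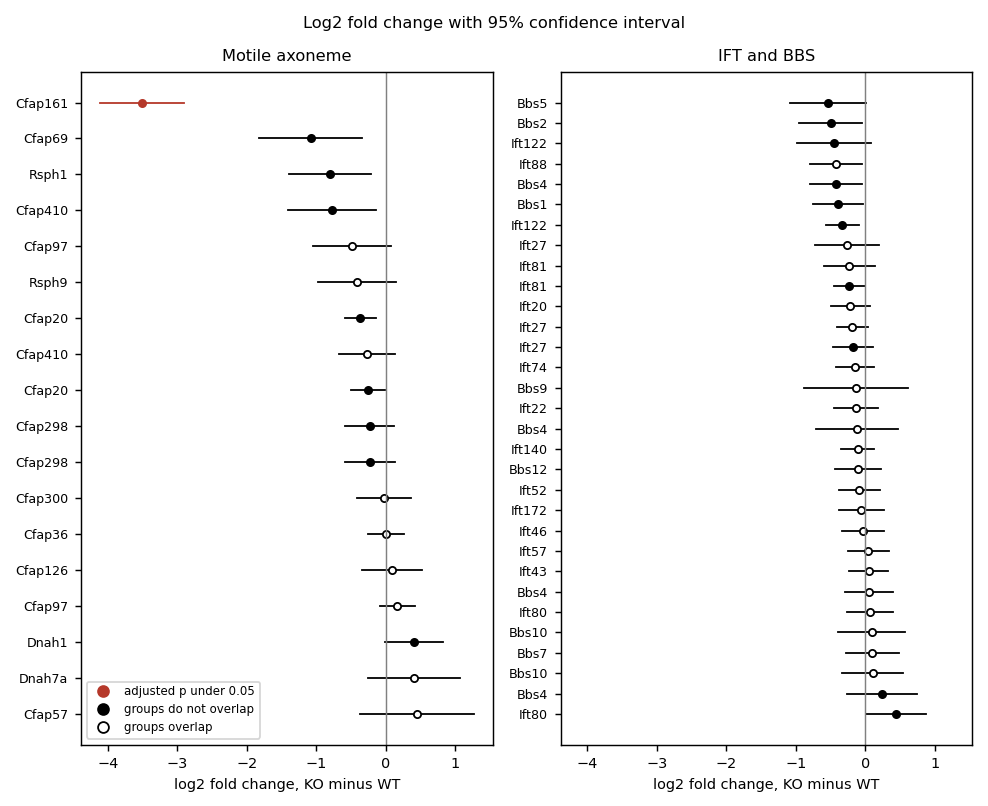
Log2 fold change (KO minus WT) with its 95% confidence interval for the tested motile axoneme probe sets on the left and Ift and Bbs probe sets on the right; filled points have groups that do not overlap. Cfap161 at -3.51 is the only one called, and the Ift and Bbs values run from -0.54 to 0.44.

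Ciliary genes with other name stems came from lists drawn up with earlier results of these arrays known. Their counts stand beside 4.68% of all tested probe sets called and 17.3% with an unadjusted p under 0.05. Of 14 motor genes of intraflagellar transport 0 were called by limma and 3 had an unadjusted p under 0.05, with a median of -0.18. Among them Wdr34, a dynein-2 intermediate chain gene, read 182, 273 and 263 in KO pools against 385, 539 and 270 in WT pools (adjusted p = 0.127), and the kinesin-2 gene Kif3b 146, 97.5 and 124 in KO pools against 159, 180 and 196 in WT pools (adjusted p = 0.153). Of 33 tested transition zone and basal body genes 0 were called by limma and 3 had an unadjusted p under 0.05, with a median of -0.14. Tmem107 came closest, at 1928 ± 80.8 in KO and 2573 ± 348 in WT pools (-0.41, SE 0.11, limma adjusted p = 0.0508), followed by Cep89 (-0.39, adjusted p = 0.134).

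Of 31 tested partners and further subunits of the IFT and BBS complexes, 0 were called higher and 2 lower, beside 2.75% and 1.93% of all tested probe sets. Lztfl1, which controls the entry of the BBSome into cilia, read 701, 747 and 773 in KO pools against 1088, 918 and 1023 in WT pools (-0.45, SE 0.11, limma adjusted p = 0.0428). Rab3ip, the exchange factor for the ciliary GTPase RAB8, read 388, 379 and 379 in KO pools against 507, 540 and 568 in WT pools (-0.49, SE 0.13, limma adjusted p = 0.0407). Both groups are apart, but the calls were marginal: leaving out single pools in turn, Lztfl1 was called in 1 and Rab3ip in 0 of 6 fits. Both were also lost with no filter, without the intensity trend and on the values as deposited, where the limma adjusted p was 0.772 for Lztfl1 and 0.721 for Rab3ip. The median of the list was -0.01.

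Of 20 tested axonemal genes with other stems 1 was called higher and 1 lower, beside 2.75% and 1.93% of all tested probe sets. Of the 56 on the array, 32 had both means under the dim limit. Efcab1, a calcium sensor of outer dynein arms, read 106, 127 and 145 in KO pools against 65.7, 67.9 and 58.1 in WT pools (0.98, SE 0.21, limma adjusted p = 0.0181). Ak7, an adenylate kinase of motile cilia, read 54.7, 76.1 and 81.8 in KO pools against 124, 162 and 137 in WT pools (-1.01, SE 0.22, limma adjusted p = 0.0197). Efcab1 was not called without WT replicate 1 or KO replicate 2 or 3, nor Ak7 without WT replicate 2 or KO replicate 1. With no filter both calls were lost (limma adjusted p = 0.113 for Efcab1 and 0.159 for Ak7), and Ak7 was also not called without the intensity trend or on the values as deposited. Of 12 tested dynein assembly and docking genes 0 were called by limma and 1, Pih1d1, had an unadjusted p under 0.05 (-0.30, adjusted p = 0.203), followed by Ruvbl1 (-0.20, adjusted p = 0.295), both of them chaperone components also used outside cilia.

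Probe sets just outside the naming rule gave no call. Both Dnaic1 and both Dnaic2 probe sets had group means between 8.99 and 22.2. The probe set shared by Rsph3b and Rsph3a averaged 1046 ± 136 in KO and 1286 ± 193 in WT pools (-0.29, SE 0.14), that shared by Dnah7c and Dnah7b 142 ± 35.5 in KO and 166 ± 17.8 in WT pools (-0.25, SE 0.21), and the tested one of Cfap20dc 65.4 ± 4.52 in KO and 73.7 ± 7.41 in WT pools (-0.17, SE 0.22). The signal of a shared probe set cannot be divided between its genes.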

How the data were processed

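The values are 1 linear intensity per probe set and array that the authors deposited for 6 arrays, 3 per genotype. Per the submitters' processing notes GCOS 1.2 was used, with algorithm and scaling not given in the sources used here. Because the 2% trimmed means of the arrays differed by up to 1.47 times, above a limit of 5%, each array was scaled to 309.2, a floor was placed at the 20th percentile (7.99) before log2 transformation. Controls (64 probe sets) and the dimmest 40% of the others by mean log2 intensity were excluded. The remaining 27022 were fitted with limma 3.58.1 in R 4.3.3 (lmFit, eBayes with an intensity trend, two-sided, Benjamini-Hochberg adjustment, threshold 0.05), and p-values measure only the spread between pools. Ratios of 3' to 5' control probe sets did not separate the genotypes (Gapdh 3.64 to 4.16 in KO and 3.48 to 4.25 in WT arrays, exact permutation p = 1, smallest possible 0.1). Those of beta actin were higher, at 14.6 to 20.2 in KO and 14.9 to 19.4 in WT arrays (exact permutation p = 0.8).

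Names are those of the platform annotation, and all 95 members matched RefSeq (GRCm38.p6). Members and lists were chosen with earlier results of these data known. Named were called members, the 6 non-overlapping probe sets of each group with the largest differences, the 3 bright ones with the smallest, further probe sets of the named genes, and the called or lowest-p genes of each list, each read by its probe set of highest mean. Other members are given by role and were chosen with their values seen. On simulated arrays 56.1% of 2-fold and 98% of 4-fold changes were recovered among 27022 tested probe sets, with 10 false calls. Only 98 tested probe sets carried a 2-fold and 99 a 4-fold change, beside 1264 called in the real arrays. As the adjusted p depends on that share, these rates need not hold for the real arrays. Alternatives covered scaling, floor, filter, block, weights, trend, threshold, cross-hybridising probe sets and left-out pools.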

Additional observations from a re-analysis of the deposited data

How the results depend on the processing

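Cfap161 stayed lower in KO and called in all 17 alternatives in which it was tested, with log2 fold changes from -3.70 to -2.64 and adjusted p-values up to 0.0364 (no filter). The count of motile probe sets called lower, 1 in the analysis reported, was 0 with the lowest 60% left out, since Cfap161 was then not tested, and 2 at a threshold of 0.1. With 1 pool left out it ran from 1 to 3, and that of Ift and Bbs probe sets called lower from 0 to 1, both highest without WT replicate 3; the cause was not tested. No member was called higher under any alternative run. Over all tested probe sets the number called was 1264, against 151 with no filter, 541 without the intensity trend, 846 as deposited, 1939 at the threshold of 0.1, 721 without WT replicate 1 and 815, 834 and 790 without KO replicates 1, 2 and 3.

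Values near 0 changed sign. As deposited without rescaling, where the median of all tested probe sets was 0.10, Ift46 gave 0.066, Cfap300 0.064 and Cfap36 0.093. With 1 pool left out Cfap36 ran from -0.06 to 0.065, Cfap300 from -0.121 to 0.134, Ift46 from -0.203 to 0.069, Ift43 from -0.049 to 0.149, Ift57 from -0.015 to 0.088, and 2 Bbs4 probe sets from -0.25 to 0.027 and from -0.036 to 0.157. Repeats for the genes of the lists, Stard5 and the dimmer Cfap97 probe set were added after seeing the data.

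Pools with the same replicate number did not deviate together (correlations of deviations of -0.07, 0.04 and -0.05). With a single KO and a single WT pool per number, these values cannot show whether such pools shared a batch or litter. With the replicate number as a block, 1160 probe sets were called, 1 motile and lower (Cfap161, -3.51) and 0 of Ift and Bbs, and Lztfl1 and Rab3ip were no longer called. With 3 arrays per group, changes under 2-fold would often be missed, and dim motile probe sets carry little information.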
